A study of Mus musculus with 2 samples.

Results

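Malignant cells in division were studied in mouse 4T1 mammary tumours by droplet single-cell RNA sequencing, with 1236 such cells among 22863 deposited barcodes. The 539 cells of the beta-elemene library and the 697 cells of the vehicle library were chosen by their RNA. A barcode needed 200 or more detected genes and no more than 20% of its unique molecular identifiers (UMIs, which count captured RNA molecules) from mitochondrial genes. It then needed at least 10 UMIs of the keratins Krt8 and Krt18 per 10000, no UMI of the leukocyte gene Ptprc or the endothelial gene Pecam1, and under 5 UMIs of the fibroblast genes Col3a1 and Dcn. Of the 2822 beta-elemene and 3194 vehicle cells that met these limits, called malignant here, those with at least 5 UMIs of Top2a and Mki67 together were taken as dividing. The other 2283 beta-elemene and 2497 vehicle cells are called the other malignant cells.

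The 4T1 line grows in mice as a stand-in for human breast cancer without hormone or Her2 receptors. Beta-elemene is a sesquiterpene from plants that is used against tumours. Both groups received 4T1 cells in Matrigel and saline buffer in the mammary fat pad. The beta-elemene group was injected with the compound into the abdomen every day at 30 mg/kg for 18 days, and the vehicle group was given normal saline in the same volume over the same time. Each group is 1 library of unstated mouse number, so a difference between the groups could not be checked in replicates and was not tested. Every interval below is a 95% interval that covers counting error only.

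A dividing cell copies its DNA in S phase, prepares in G2 and parts its chromosomes in mitosis, and many of the genes for each step are transcribed only around the time they are needed. Top2a encodes topoisomerase II alpha, which untangles DNA, and Mki67 encodes the Ki-67 protein that coats mitotic chromosomes, and pathologists count Ki-67 to gauge growth in breast tumours. Cells at rest, or early in G1, hold little RNA of either gene, so a limit on them picks S, G2 and mitosis more readily than G1.

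Of the markers of the label, Top2a and Mki67 chose the cells, so their high levels were set by the limits. The histone markers Hist1h2ap and Hist1h1b were also higher in dividing than in other malignant cells. Hist1h2ap, a replication-dependent H2A histone gene that the limits did not use, had 1741 UMIs per 1000000 (CPM) in dividing cells of the beta-elemene library and 1441 CPM in those of the vehicle library. The other malignant cells had 57.6 CPM in beta-elemene and 52.9 CPM in vehicle. Hist1h1b, which encodes the linker histone H1.5, had 779 CPM in dividing cells of beta-elemene and 532 CPM in those of vehicle, against 20.8 CPM and 13.5 CPM in the other malignant cells of beta-elemene and vehicle. The epithelial gene Epcam, also outside the limits, had 650 CPM in dividing cells of beta-elemene and 546 CPM in those of vehicle. The other malignant cells had more of it, 881 CPM in beta-elemene and 640 CPM in vehicle. Barcodes with Ptprc, with Pecam1 or with at least 5 Col3a1 and Dcn UMIs had at most 243 CPM and 187 CPM. In dividing cells of both libraries Krt7 and Cdh1 also stood above all of those barcode groups, while Krt19 and Lcn2 stood below the highest of them. A member held a median of 24 UMIs of Top2a and Mki67 in beta-elemene and 21 in vehicle. Just inside the limit, the cells with exactly 5 such UMIs, 41 in beta-elemene and 54 in vehicle, had 15.1 CPM and 19.7 CPM of the cyclin gene Ccna2. Just outside it, the cells with 4, which were 70 in beta-elemene and 75 in vehicle, had 24.5 CPM and 17.8 CPM, so the limit runs through a gradual slope and not a gap.

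Depth was close between the libraries but not between the cell groups. The deposited barcodes held 157282740 UMIs in beta-elemene and 168750895 in vehicle. Dividing cells had a median of 34095 UMIs and 5780 genes in beta-elemene and of 33160 UMIs and 5694 genes in vehicle, while the other malignant cells had 18130 UMIs and 4039 genes in beta-elemene and 18334 UMIs and 4085 genes in vehicle. A deeper cell passes a limit of 5 UMIs more easily. With a limit of 3 per 10000 UMIs in its place, dividing cells still had the higher median, 28369 UMIs against 19191.5 in the rest of the malignant cells of beta-elemene, and 29271 against 19482 in vehicle. Mitochondrial UMIs had a median of 3.97% in dividing cells of beta-elemene and 3.82% in those of vehicle. The libraries shared 37 barcodes, of which 0 were dividing malignant cells in beta-elemene, 2 were in vehicle and none was in both. Called doublets numbered 4 among the members of each library.

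A somewhat smaller share of malignant cells was in division in the beta-elemene library. It was 19.1% (17.7 to 20.6) in beta-elemene and 21.8% (20.4 to 23.3) in vehicle, a difference of -2.72 percentage points (-4.75 to -0.678). The size of the difference moved with the limit. At 10 UMIs or more the shares were 14.5% in beta-elemene and 15.5% in vehicle, a difference of -0.969 points (-2.77 to 0.845), and at 20 or more it was -0.541 points (-2.13 to 1.07). With every cell thinned to 5000 UMIs and a limit of 2, the shares were 18.3% in beta-elemene and 19.9% in vehicle, a difference of -1.60 points (-3.71 to 0.519). The sign was negative at all of these limits, but at these 3 the interval included 0, so a difference was not detectable at this depth under them.

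**Figure D1:**
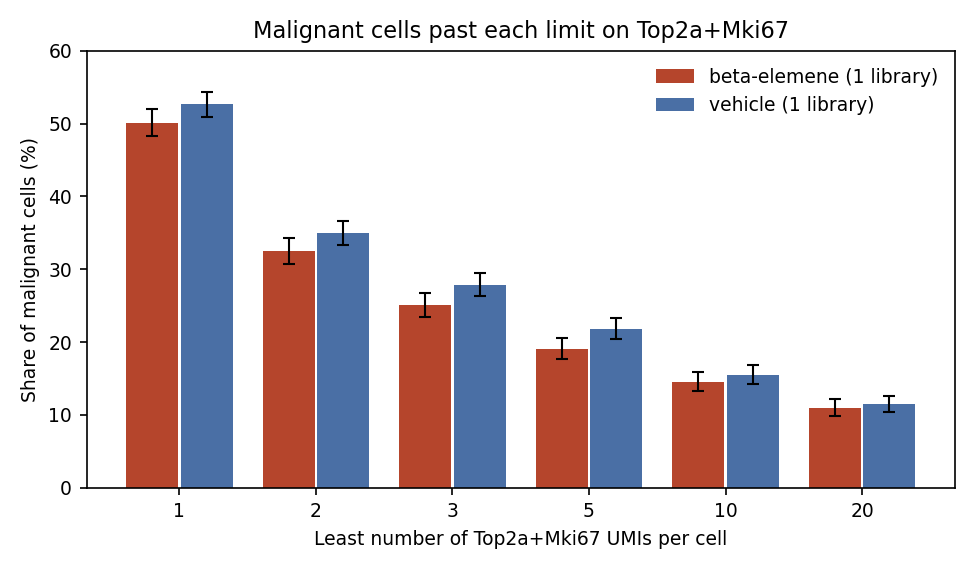
Share of malignant cells (%) with at least the number of Top2a and Mki67 UMIs on the horizontal axis, in the beta-elemene library (left bar of each pair) and the vehicle library, with exact 95% binomial intervals. The limit of 5 gives 19.1% in beta-elemene and 21.8% in vehicle, and the bars draw closer at 10 and 20.

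The same count in other barcodes gives a scale for these shares. Among T cells, called from their CD3 genes, 49 of 494 in beta-elemene (9.92%) and 45 of 461 in vehicle (9.76%) had at least 5 UMIs. The T cells were shallower than the malignant cells, at medians of 5280.5 UMIs in beta-elemene and 5137 UMIs in vehicle. Their shares were not adjusted for depth, so they do not compare rates of division. Neutrophils do not divide in tissue, and 4 of 1093 in beta-elemene and 3 of 665 in vehicle reached the limit. Any UMI of Top2a or Mki67 was seen in 8.14% of neutrophils in beta-elemene and 8.57% in vehicle, at medians of 2296 and 2222 UMIs, against 50.1% of malignant cells in beta-elemene and 52.6% in vehicle at medians of 20201.5 and 20390 UMIs. Barcodes that met the keratin limit but held a Ptprc UMI, 436 in beta-elemene and 529 in vehicle, reached the limit of 5 in 29.6% and 32.9% of cases. Both are above the shares among the malignant cells kept. With all barcodes past the keratin limit kept, the shares were 21.3% in beta-elemene and 24.1% in vehicle.

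Genes of chromosomes, the spindle and the histones had the highest ratios of dividing over other malignant cells, in both libraries. The limits used Top2a and Mki67 in this same contrast, so what follows describes the cells and tests nothing. Of 12796 genes measured, with at least 50 UMIs in each library, 576 were at least 2-fold higher in dividing cells of both libraries (4.50% of genes), and 174 were at least 2-fold lower in both (1.36%). Hand-written lists of cell cycle genes held 243 of the 576, and 315 of the 12796 genes measured. Among the 20 genes with the highest ratios 14 were in one of those lists. Esco2, an acetyltransferase that ties sister chromatids together, was 44.6-fold higher in dividing cells in beta-elemene and 57.6-fold in vehicle. Aurkb, the kinase that corrects faulty spindle attachments, was 45.8-fold higher in beta-elemene and 30.0-fold in vehicle, and Plk1, a kinase that drives mitotic entry, 27.9-fold and 27.3-fold. Neil3, a DNA glycosylase that unhooks crosslinks at replication forks, was 104-fold higher in beta-elemene and 39.3-fold in vehicle, and its level in the other malignant cells was under 1 CPM in both. The rest of the 20 were the histone genes Hist1h2af, Hist1h2ah, Hist1h1b and Hist1h2ap, the kinesins Kif11, Kif14 and Kif15, the kinetochore genes Knl1, Ndc80 and Spc25, and Nusap1, Depdc1a, Iqgap3 and Mxd3, with Top2a and Mki67 themselves.

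Groups of cell cycle genes differed in size. The mitotic entry and spindle list had a median log2 ratio of dividing over other malignant cells of 4.05 in beta-elemene and 4.02 in vehicle, with 45 of 46 genes at least 2-fold higher in both. Replication-dependent histones had medians of 3.23 and 3.26 in beta-elemene and vehicle, with 53 of 55 genes higher. The kinetochore and checkpoint list had medians of 3.21 and 3.09, with 32 of 33 higher. Genes of replication licensing and the fork moved less, at medians of 1.59 in beta-elemene and 1.37 in vehicle with 39 of 46 higher, and repair genes stood at 1.94 and 1.81 with 27 of 38 higher. Nucleotide supply had medians of 1.03 and 0.97 with 11 of 25 higher. The median over all genes measured was 0.06 in beta-elemene and 0.07 in vehicle.

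**Figure D2:**
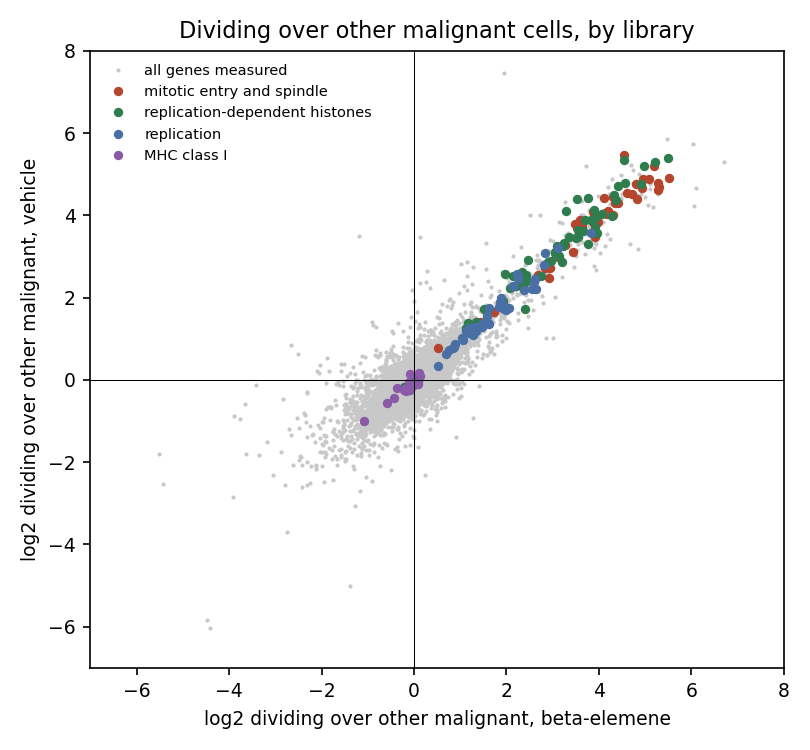
Log2 ratio of dividing over other malignant cells in the beta-elemene library (horizontal) and in the vehicle library (vertical), 1 point per gene. Spindle and histone genes lie at the upper right with medians near 4 and 3, replication genes between them and the origin, and MHC class I genes near 0.

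Regulators were mixed, with 12 of 34 measured at least 2-fold higher in both libraries and none lower. Foxm1, a factor that switches on mitotic genes, was 14.0-fold higher in dividing cells in beta-elemene and 13.9-fold in vehicle, and Mybl2, which acts with it, 10.7-fold and 11.2-fold. E2f7 and E2f8, repressors that damp the S phase programme, were 11.4-fold and 5.54-fold higher in beta-elemene and 8.92-fold and 3.87-fold in vehicle. The G1 cyclin Ccnd1 was 1.55-fold higher in beta-elemene and 1.49-fold in vehicle, and the inhibitor Cdkn1a stood at 0.944 in beta-elemene and 1.09 in vehicle. Cdkn2d, an inhibitor of Cdk4 and Cdk6, was 6.43-fold higher in beta-elemene and 6.94-fold in vehicle, whereas its relative Cdkn2c was at 0.786 and 0.735. Cdkn2a had no UMI in dividing cells of either library.

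Fewer genes were lower in dividing cells. Lcn2, an iron-binding secreted lipocalin, had 244 CPM in dividing cells and 943 CPM in the other malignant cells of beta-elemene, a ratio of 0.259, and 102 CPM and 574 CPM in vehicle, a ratio of 0.178. T cells of the same libraries had 164 CPM of it in beta-elemene and 101 CPM in vehicle. Gadd45a, a stress-induced inhibitor of the cell cycle, had ratios of 0.366 in beta-elemene and 0.372 in vehicle, and Serpine2, a secreted protease inhibitor, 0.313 and 0.239. Also among the lowest were Abcc3, Ace, the copper oxidase Cp, the cytokine gene Tslp, Ppp1r14c, Fxyd3, Lyst and Klf9, each at 0.392 or less in both libraries. Only 103 genes were at least 2-fold lower when the other malignant cells were limited to those at least as deep as the lower quartile of the dividing cells, against 174 with all of them.

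The promoters of the mitotic and replication lists differed in letters that the limits did not use. A CHR element (cell cycle genes homology region, searched as TTTGAA or TTTAAA) with a CCAAT box is the known arrangement of genes held back in rest by the DREAM complex and switched on late by B-Myb and FoxM1, and an E2F site (searched as TTTCCCGC or TTTGGCGC) is that of genes switched on for S phase. Windows of 300 bases, from 250 before to 50 after the first listed start of each gene, were read on both strands from RefSeq on GRCm38.p6, where 38 of the 46 spindle genes and 37 of the 46 replication genes were matched by symbol. The CHR letters stood in 81.6% of spindle promoters, 48.3% of the 29 matched kinetochore promoters, 21.6% of replication promoters and 27.8% of all 27025 promoters. CHR letters together with CCAAT stood in 68.4% of spindle promoters and 10.9% of all. CCAAT alone stood in 78.9% of spindle, 72.4% of kinetochore and 62.2% of replication promoters, against 37.9% of all. The E2F letters stood in 32.4% of replication promoters, 7.9% of spindle promoters and 1.63% of all. A match is a description of the sequence and does not show binding in these cells. Shown here are promoters of a pair of mitotic genes that hold CHR and CCAAT and of a pair of replication genes that hold E2F letters, each with the highest levels of its kind in dividing cells. Capitals mark every CHR, CCAAT and E2F match on either strand, and both replication windows hold CCAAT as well, read there as ATTGG. On the minus strand, Cks1b lies at chr3:89418242-89418541, Cenpf at chr1:189688037-189688336, Pola1 at chrX:93632106-93632405 and Mcm6 at chr1:128359656-128359955.
Cks1b: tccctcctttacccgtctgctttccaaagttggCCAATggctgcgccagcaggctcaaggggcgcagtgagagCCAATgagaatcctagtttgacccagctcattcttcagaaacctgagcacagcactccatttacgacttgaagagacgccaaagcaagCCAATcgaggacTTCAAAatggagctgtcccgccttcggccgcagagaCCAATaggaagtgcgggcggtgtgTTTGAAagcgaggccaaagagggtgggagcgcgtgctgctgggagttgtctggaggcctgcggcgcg
Cenpf: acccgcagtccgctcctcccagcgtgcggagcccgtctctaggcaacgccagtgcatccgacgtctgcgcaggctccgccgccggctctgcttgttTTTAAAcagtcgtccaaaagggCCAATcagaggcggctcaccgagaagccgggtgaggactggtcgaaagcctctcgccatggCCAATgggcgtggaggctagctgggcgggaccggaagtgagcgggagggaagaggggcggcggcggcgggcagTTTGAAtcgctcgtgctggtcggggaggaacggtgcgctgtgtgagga
Pola1: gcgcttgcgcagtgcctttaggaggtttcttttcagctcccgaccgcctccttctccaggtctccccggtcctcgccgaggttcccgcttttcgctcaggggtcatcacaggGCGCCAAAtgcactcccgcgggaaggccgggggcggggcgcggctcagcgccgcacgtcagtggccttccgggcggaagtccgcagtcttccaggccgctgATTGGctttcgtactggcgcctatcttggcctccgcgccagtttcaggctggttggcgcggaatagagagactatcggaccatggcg
Mcm6: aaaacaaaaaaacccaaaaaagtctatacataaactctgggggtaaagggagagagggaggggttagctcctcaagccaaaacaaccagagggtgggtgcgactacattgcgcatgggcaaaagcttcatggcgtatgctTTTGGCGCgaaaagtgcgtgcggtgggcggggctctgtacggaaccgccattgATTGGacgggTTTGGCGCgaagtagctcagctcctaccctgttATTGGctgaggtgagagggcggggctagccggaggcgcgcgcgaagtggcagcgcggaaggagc
The genes behind these windows differed in how far they stood above the other malignant cells. Cenpf, a kinetochore protein of G2 and mitosis, had 324 CPM in dividing cells of beta-elemene and 306 CPM in those of vehicle, 19.8-fold and 21.7-fold above the other malignant cells. Cks1b, a small partner of Cdk1, had 385 CPM in beta-elemene and 325 CPM in vehicle, 2.76-fold and 2.75-fold above them. Pola1, the catalytic subunit of the polymerase that primes DNA synthesis, had 115 CPM in beta-elemene and 127 CPM in vehicle, 2.82-fold and 2.60-fold above them. Mcm6, a subunit of the replicative helicase, had 97.9 CPM in beta-elemene and 105 CPM in vehicle, 2.28-fold and 2.19-fold above them.

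Within division, cells were ordered from S phase to mitosis. Each cell was thinned to 10000 UMIs, which left out 21 shallower cells of beta-elemene and 66 of vehicle, and scored by the log2 ratio of replication genes to spindle and exit genes. The cells were parted into 4 bins of the pooled order, of like size over both libraries, bin 1 being most like S phase and bin 4 most like G2 and mitosis. The lists that set the order are a description along it. Replication genes summed to 4197 CPM in beta-elemene and 3877 CPM in vehicle in bin 1, and to 952 CPM and 829 CPM in bin 4. Spindle and exit genes ran the other way, with 2459 CPM in beta-elemene and 2256 CPM in vehicle in bin 1 and 12063 CPM and 11293 CPM in bin 4.

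Histone genes, which the score did not use, were highest between the ends. They summed to 2043 CPM in beta-elemene and 1969 CPM in vehicle in bin 1 and to 10169 CPM and 10121 CPM in bin 2. They then stood at 8382 CPM in beta-elemene and 8136 CPM in vehicle in bin 3, and at 6463 CPM and 5141 CPM in bin 4. Most replication-dependent histone mRNAs lack the poly(A) tail by which the chemistry captures RNA, so these values count only the molecules that were captured. Reads of such near-identical genes may also be split between copies, which makes single histone genes uncertain. Ccne2, a cyclin of the entry into S phase that the score left out, had 26.7 CPM in beta-elemene and 23.3 CPM in vehicle in bin 1 and 2.82 CPM and 0 CPM in bin 4.

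**Figure D3:**
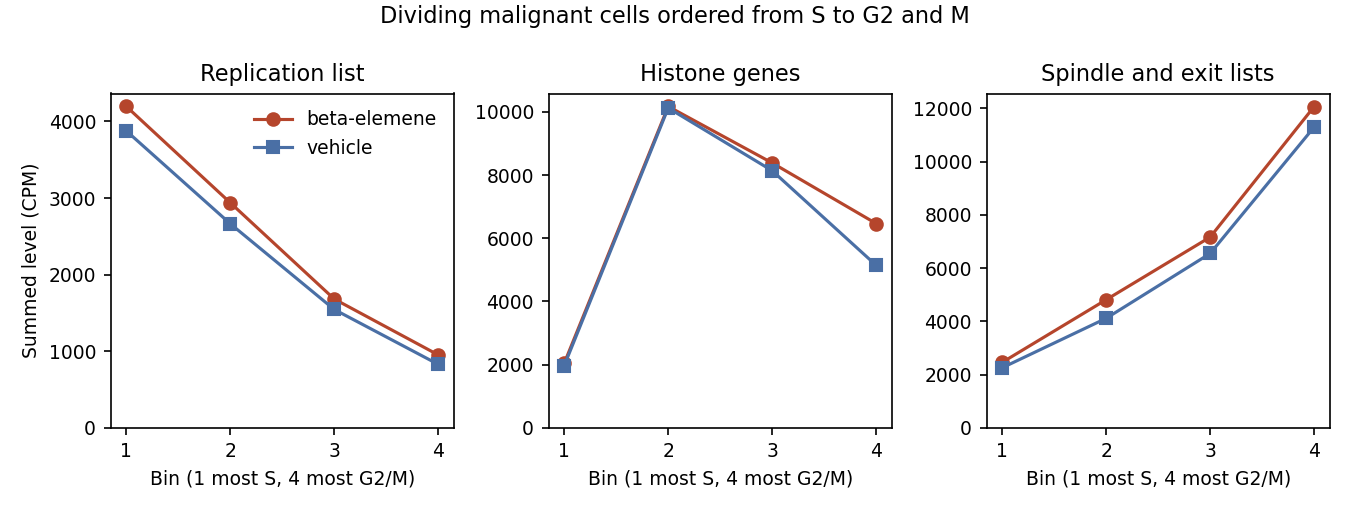
Summed CPM of the replication list, the histone genes and the spindle and exit lists over 4 bins of dividing cells ordered from S phase (1) to G2 and mitosis (4), in the beta-elemene library (red circles) and the vehicle library (blue squares). Histones rise to about 10000 CPM in bin 2 and stay above bin 1 afterwards in both libraries.

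The libraries did not differ detectably in where their dividing cells stood in this order. The share of cells on the S side of the pooled median was 49.2% (44.8 to 53.6) in beta-elemene and 50.6% (46.6 to 54.5) in vehicle, a difference of -1.33 points (-7.11 to 4.47). The score is a range and not a type, and 60 cells in beta-elemene and 52 in vehicle lay within 0.25 log2 of the dividing line. Bin 1 held 22.4% of the cells in beta-elemene and 27.3% in vehicle, and bin 4 held 27.4% and 23%. Hist1h1b was at 249, 1247, 888 and 537 CPM over bins 1 to 4 in beta-elemene and at 161, 841, 757 and 343 CPM in vehicle, so it was higher in beta-elemene in each bin. Cdkn1a, the p53-induced inhibitor p21, was at 18.1, 33.1, 35.5 and 22.5 CPM over bins 1 to 4 in beta-elemene, and at 38.4, 58.1, 39.8 and 39.3 CPM in vehicle.

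The share of dividing cells differed between malignant cells with and without a captured UMI of single state genes. For this, all malignant cells were thinned to 5000 UMIs and called dividing at 2 UMIs of Top2a and Mki67, which left out 371 shallower cells in beta-elemene and 317 in vehicle. The shares come from the same cells as the ratios of dividing over other malignant cells above, so they add no independent support to those ratios. Among cells with a UMI of Lcn2, 8.86% were dividing in beta-elemene, against 29.7% of cells without one, and in vehicle the shares were 9.67% and 27.6%. Cells with the tight-junction gene Cldn4 were dividing in 13.6% of cases in beta-elemene, against 22.2% of those without, and in 14.9% against 23.6% in vehicle. With Cldn3, of the same family, the shares were 15.7% against 20.3% in beta-elemene, and 18.2% against 20.8% in vehicle, where the intervals overlapped. Cells with H2-T23, the non-classical class I gene for Qa-1, divided in 12.8% against 21.9% of cases in beta-elemene and in 12.2% against 22.6% in vehicle. The hypoxia gene Car9, a carbonic anhydrase, gave 16.3% against 18.8% in beta-elemene, where the intervals overlapped, and 13.9% against 21.3% in vehicle. Ankrd37, also induced by hypoxia, gave 15.1% against 18.7% in beta-elemene and 16.7% against 20.2% in vehicle, with overlapping intervals in both.

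Ankrd1, Ccnd1, Tnfrsf12a and Vim went the opposite way. Cells with Ankrd1, a target of the YAP pathway, were dividing in 22.9% of cases in beta-elemene, against 16.2% without, and in 26.4% against 16.4% in vehicle. With Ccnd1, which encodes cyclin D1, 20.7% were dividing against 8.09% without in beta-elemene, and 21.9% against 10.4% in vehicle. With Tnfrsf12a, the TWEAK receptor, the shares were 20.0% against 14.3% in beta-elemene and 22% against 14.9% in vehicle. With Vim they were 19.2% against 5.85% in beta-elemene and 20.7% against 4.29% in vehicle. Few cells had no Vim UMI, 171 in beta-elemene and 140 in vehicle. A cell with a UMI of Cdkn1a was dividing in 18.7% of cases in beta-elemene, against 18.2% without, and in 24.0% against 19.1% in vehicle.

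A UMI of these genes can also come from free RNA, so their shares were read in T cells thinned to the same 5000 UMIs, 271 in beta-elemene and 240 in vehicle. Lcn2 was captured in 54.8% of malignant cells and 9.59% of T cells in beta-elemene, and in 43.1% and 7.92% in vehicle. Cldn4 was captured in 45.5% and 1.11% in beta-elemene and in 42.5% and 2.92% in vehicle, and Ccnd1 in 80.8% and 8.86% in beta-elemene and in 82.3% and 14.2% in vehicle. Tnfrsf12a was captured in 70.1% and 10.3% in beta-elemene and in 70.3% and 12.5% in vehicle. Cldn3, Car9 and Ankrd1 were each captured in under 3% of T cells in both libraries. Vim was captured in 93.0% of malignant cells and 94.8% of T cells in beta-elemene, and in 95.1% and 90.4% in vehicle. T cells therefore give no background for Vim. Ankrd37 stood near the level of other cells, with 12.7% of malignant cells against 7.38% of T cells and 14% of 100 neutrophils in beta-elemene, and 9.18% against 5.83% and 16.7% of 60 neutrophils in vehicle. T cells make class I proteins themselves, and H2-T23 was captured in 48.3% of them in beta-elemene and 40% in vehicle, more than in malignant cells, so they give no background for it. Cdkn1a too was captured less in malignant cells, in 10.3% against 33.2% of T cells in beta-elemene and 15.4% against 35% in vehicle. The part of free RNA in the Cdkn1a values was not tested. Before thinning, the median depth of these cells was 22051 UMIs in malignant cells and 7575 UMIs in T cells of beta-elemene, and 21805 and 7780 UMIs in vehicle.

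The next comparison set dividing cells of the beta-elemene library against dividing cells of the vehicle library. Summed UMIs were scaled to the total of the dividing cells, and a gene was called if it differed 1.5-fold or more with an interval that excluded 1. Of 12353 genes with at least 50 UMIs, 205 were called higher (1.66%) and 550 lower (4.45%). A ratio above 1 was found for 6027 of them (48.8%), the share to set beside the list counts below. The same comparison in the other malignant cells called 172 of 13733 genes higher (1.25%) and 650 lower (4.73%). Of the 205 higher genes 44 were called higher in the other malignant cells too and 179 had a ratio above 1 there, and of the 550 lower genes 203 were called lower there and 489 had a ratio under 1. With 10 CPM added to both libraries, which shrinks the ratios of genes at low levels, 7 genes were called higher and 54 lower. By that count 11.5% of calls were higher, against 27.2% without the addition.

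The machinery of division itself differed little between the libraries. None of the 46 spindle genes, 33 kinetochore genes, 46 replication genes, 25 nucleotide genes or 16 exit genes was called either way. The median log2 ratio was 0.15 over spindle genes, with 36 of 46 above 1, and 0.15 over exit genes with 14 of 16 above 1. It was 0.11 over replication genes, 0.10 over kinetochore genes and 0.03 over nucleotide genes. Over all genes tested it was -0.01, with 48.8% of ratios above 1. Cdk1, the kinase of mitotic entry, had 225 CPM in beta-elemene and 184 CPM in vehicle, a ratio of 1.22 (1.17 to 1.27). Pcna, the sliding clamp of the replication fork, had 135 CPM in beta-elemene and 132 CPM in vehicle, a ratio of 1.03 (0.976 to 1.08). Pimreg, at 1.42, had the highest ratio of the spindle list and Kif4, at 0.871, the lowest.

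Histones had a median of -0.04, with none of 56 called higher and 3 called lower, but their summed UMIs had a ratio of 1.11. The 3 were the H4 genes Hist1h4a, Hist1h4c and Hist1h4f at ratios of 0.621, 0.536 and 0.626. Hist1h1b and Hist1h1e, both linker histones that clamp DNA where it enters the nucleosome, had ratios of 1.47 (1.43 to 1.5) and 1.38 (1.35 to 1.42). Hist1h1b had a ratio of 1.54 in the other malignant cells and Hist1h1e 1.18. The repair list had a median of 0.08 with 1 of 38 called higher, Xrcc3, a strand exchange protein, at 1.51 on levels of 3.18 CPM in beta-elemene and 2.10 CPM in vehicle.

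Among regulators, 1 of 34 measured was called higher and none lower. It was Ccnd2, a D-type cyclin, with 14.2 CPM in beta-elemene and 9.21 CPM in vehicle, a ratio of 1.54 (1.29 to 1.85), while Ccnd1 had 853 CPM in beta-elemene and 829 CPM in vehicle, a ratio of 1.03. Cdkn1a had 28.1 CPM in beta-elemene and 41.4 CPM in vehicle, a ratio of 0.678 (0.610 to 0.753), and Mdm2, the ligase that degrades p53, 39.8 CPM and 56.8 CPM, a ratio of 0.700 (0.640 to 0.765). Both are induced by p53 and neither passed 1.5-fold. Other cells had more Cdkn1a, with 146 CPM in T cells and 1319 CPM in neutrophils of beta-elemene, and 157 CPM and 1149 CPM in those of vehicle. The part of free RNA in its ratio was not tested. Over 22 measured p53 targets the median was 0.00, with 1 called higher and 2 lower. Gadd45a was the higher one, with 73.0 CPM in beta-elemene and 46.3 CPM in vehicle, a ratio of 1.58 (1.46 to 1.71), close to its 1.60 in the other malignant cells. The kinase gene Plk3 at 0.664 and Trp53inp1 at 0.552 were the lower ones, and Trp53inp1 had a ratio of 1.01 with its highest cell of each library left out.

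The 12 highest ratios under the naming rule were led by Lcn2. Lcn2 (chr2:32384633-32388252) had 244 CPM in beta-elemene and 102 CPM in vehicle, a ratio of 2.38 (2.27 to 2.50), beside 1.64 in the other malignant cells. Neutrophils, which store its protein in granules, had 1635 CPM in beta-elemene and 1461 CPM in vehicle, and T cells 164 CPM and 101 CPM, so that the level in dividing cells of vehicle was at that of T cells. The part of free or neutrophil RNA in the Lcn2 ratio was not tested. Fgfbp1 (chr5:43978858-43981779), a carrier that frees fibroblast growth factors from the matrix, had 31.3 CPM in beta-elemene and 14.4 CPM in vehicle, a ratio of 2.17 (1.90 to 2.48), beside 2.10 in the other malignant cells. Wnt10a, a secreted Wnt ligand, had 14.6 CPM in beta-elemene and 7.44 CPM in vehicle, a ratio of 1.96 (1.62 to 2.37), beside 1.34. The cytokine gene Tnf had a ratio of 1.72 on 10.0 CPM in beta-elemene and 5.84 CPM in vehicle, and Ramp1, a subunit of the receptor for the neuropeptide CGRP, 1.69 on 98.1 CPM and 57.9 CPM. The other 7 were Ncmap, Prelid2, the galectin gene Lgals7, Cth, which makes cysteine, Tmem140, the drug exporter gene Abcc3 and the hypoxia-induced Ankrd37, with ratios between 1.67 and 1.81. Ankrd37 had 28.1 CPM in beta-elemene and 16.8 CPM in vehicle, below the 77.5 CPM and 75.7 CPM of neutrophils. The part of free or neutrophil RNA in its ratio was not tested.

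On the lower side, the casein kinase 2 subunit gene Csnk2a2 and the chromatin gene Brd1 differed in many of the cells. Csnk2a2 (chr8:95446096-95490039) had 45.9 CPM in beta-elemene and 107 CPM in vehicle, a ratio of 0.430 (0.398 to 0.464), and was seen in 69.2% of dividing cells in beta-elemene and 88.7% in vehicle. Brd1, a chromatin reader of histone acetyltransferase complexes, had 31.4 CPM in beta-elemene and 67.4 CPM in vehicle, a ratio of 0.466 (0.424 to 0.511). Both ratios were close to those in the other malignant cells, 0.459 and 0.457. Il11, a cytokine of the interleukin 6 family, had 11.9 CPM in beta-elemene and 29.0 CPM in vehicle, a ratio of 0.412 (0.354 to 0.478), beside 0.595 in the other malignant cells. Dusp5, a phosphatase that turns off ERK in the nucleus, had 21.1 CPM in beta-elemene and 42.6 CPM in vehicle, a ratio of 0.496 (0.442 to 0.557). Spata7 had 136 CPM in beta-elemene and 267 CPM in vehicle, a ratio of 0.507 (0.485 to 0.531), beside 0.632. The rest were Dennd5b, Pbld1, Plet1os, Itpkc, Dynap, Nwd1 and Tex14, with ratios between 0.368 and 0.518. With 10 CPM added, Itpkc, Dynap, Nwd1 and Tex14 fell short of 1.5-fold, at 0.678 to 0.727. Plet1os lies antisense to Plet1.

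**Figure D4:**
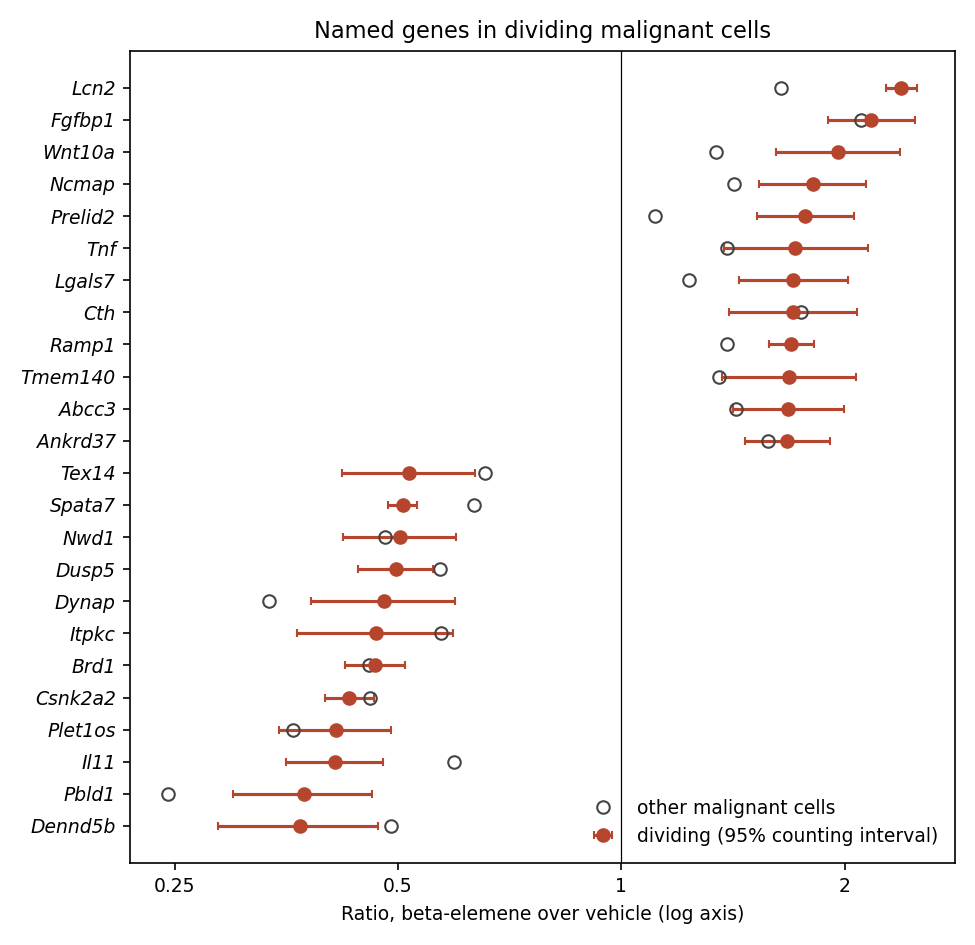
Ratio of beta-elemene over vehicle (log axis) for the 24 named genes in dividing malignant cells, with 95% counting intervals (filled), and in the other malignant cells (open). Lcn2 stands at 2.38 in dividing cells and 1.64 in the others, while Csnk2a2 and Brd1 have nearly the same ratio in both.

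Metabolic lists had medians above 0. Glycolysis had a median log2 ratio of 0.34 in dividing cells and 0.14 in the other malignant cells, with 19 of 22 genes above 1, 2 called higher and 1 lower. Pkm, the last enzyme of the pathway, had 811 CPM in beta-elemene and 607 CPM in vehicle, a ratio of 1.34 (1.31 to 1.37). Called higher were Ldhb, a lactate dehydrogenase subunit, at 1.72 and Pdk1, which keeps pyruvate from the mitochondria, at 1.57, while Hk2, the first enzyme, was called lower with 109 CPM in beta-elemene and 186 CPM in vehicle, a ratio of 0.583 (0.554 to 0.614). Hypoxia genes, some of them shared with that list, had a median of 0.25, beside 0.11 in the other malignant cells, with 3 of 24 called higher. These were Ankrd37, Pdk1 and Car9, of which Ankrd37 stood near the level of other cells. Car9 had 50.8 CPM in beta-elemene and 31.8 CPM in vehicle, a ratio of 1.60 (1.45 to 1.76) beside 1.15 in the other malignant cells. Vegfa, the main vascular growth factor, was at 0.690. Cholesterol synthesis had a median of 0.23, beside 0.27, with 21 of 24 genes above 1 and Nsdhl alone called higher, at 1.53. Oxidative phosphorylation had a median of 0.09 with none of 40 genes called, and Myc targets -0.04 with none of 36 called.

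MHC class I genes, which show peptides to CD8 T cells, had a median of 0.30 in dividing cells and 0.32 in the other malignant cells, with 20 of 23 above 1 and 2 called higher. H2-T23 had 58.5 CPM in beta-elemene and 36.8 CPM in vehicle, a ratio of 1.59 (1.46 to 1.74), and the immunoproteasome gene Psmb9 177 CPM and 115 CPM, a ratio of 1.53 (1.46 to 1.61). H2 genes have near-identical copies between which reads may be split, so single H2 values are uncertain. Immediate early and heat shock genes, which answer growth signals and also tissue dissociation, had the lowest median, -0.21, beside -0.13 in the other malignant cells, with 24 of 26 below 1, 5 called lower and none higher. The 5 were Egr3, Egr1, Atf3, Klf4 and Hspa1b, and Egr1 had 299.6 CPM in beta-elemene and 511 CPM in vehicle, a ratio of 0.586 (0.568 to 0.604). Secreted factors had a median of -0.01 with 3 of 29 called higher, Wnt6, Wnt10a and the chemokine gene Cxcl5, and 6 lower, Wnt4, Il11, Il10, Ccl5, Csf2 and Il33. Wnt6, a Wnt ligand, had a ratio of 5.31 (3.70 to 7.81) on 8.27 CPM in beta-elemene and 1.56 CPM in vehicle. Areg, a ligand of the epidermal growth factor receptor in the Ankrd1 state list, was called lower, with 123 CPM in beta-elemene and 203 CPM in vehicle, a ratio of 0.606.

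The remaining lists stood closer to 0. Apoptosis genes had a median of 0.12 with 1 of 24 called higher, Bik, a death-promoting member of the Bcl2 family. Epithelial junction genes had a median of 0.11 with 1 of 32 called higher, the recycling GTPase gene Rab25 at 1.66, and 1 lower, the epithelial factor gene Ovol1 at 0.566. The mesenchymal list had a median of 0.02 with 2 of 21 called higher, Tagln and Prrx1, both under 4 CPM in each library. The Ankrd1 state list had a median of -0.05 with 3 of 19 called lower, Il1rl1 and Cav1 beside Areg. Condensin and cohesin genes had a median of 0.07 with none of 23 called.

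**Figure D5:**
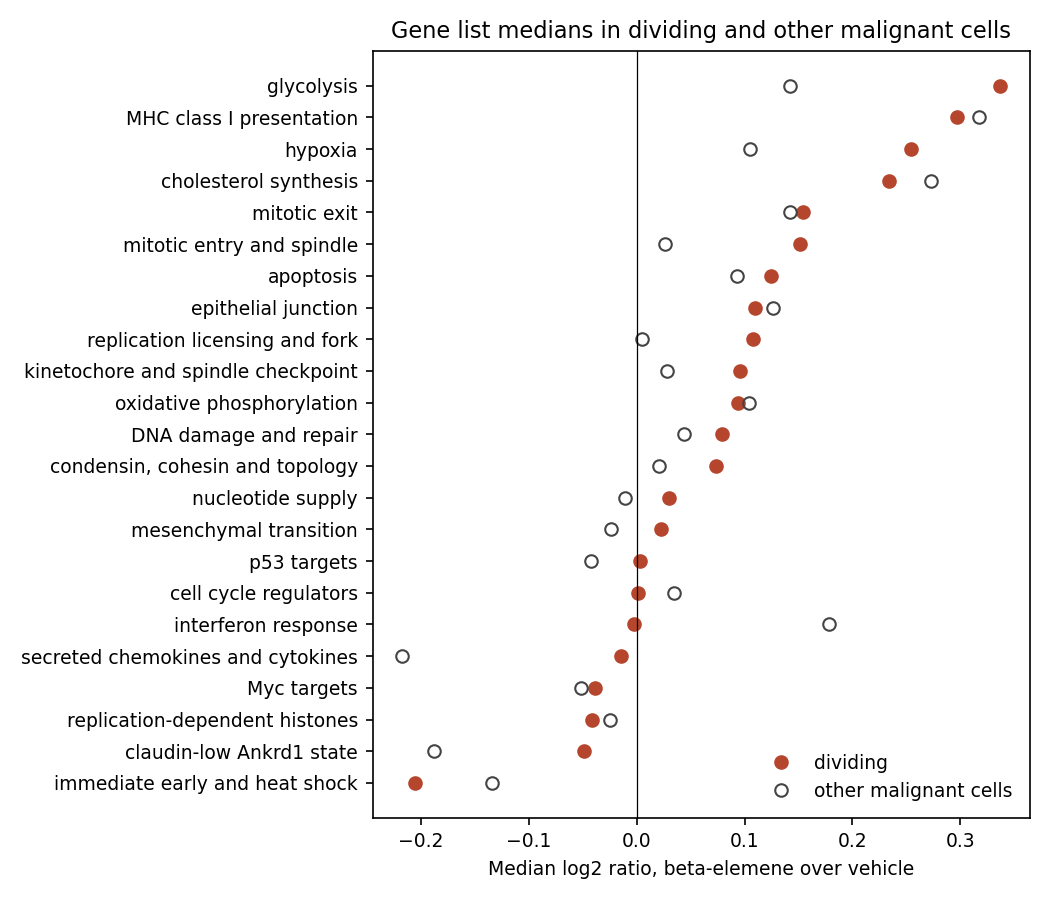
Median log2 ratio of beta-elemene over vehicle for each gene list in dividing malignant cells (filled) and in the other malignant cells (open). The glycolysis median is 0.34 in dividing cells and 0.14 in the others, and the interferon response median is 0.00 in dividing cells and 0.18 in the others.

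Interferon response genes had a median of 0.00 in dividing cells, with 1 of 37 called higher, Psmb9, and 7 lower, while their median in the other malignant cells was 0.18 and their summed UMIs in dividing cells had a ratio of 1.07. The 7 were the antiviral genes Ifit1, Ifit3, Ifit3b, Oasl1 and Rsad2 and the chemokine genes Cxcl9 and Cxcl10. Ifit1, which binds foreign RNA, had 2.87 CPM in beta-elemene and 8.96 CPM in vehicle, a ratio of 0.321 (0.235 to 0.431). In dividing cells of vehicle, few cells held most of the UMIs of the 5 antiviral genes. Cells with at least 10 UMIs of Ifit1, Ifit3, Ifit3b, Rsad2 and Oasl1 together were 1 of 539 dividing cells in beta-elemene and 17 of 697 in vehicle. Those 17 held 81.3% of the 704 vehicle UMIs, and the 1 cell of beta-elemene held 11.7% of 163 UMIs. In the other malignant cells, cells past this limit were 22 of 2283 in beta-elemene and 15 of 2497 in vehicle.

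RNA of marker genes of other cell types was captured in dividing cells, and the immune and fibroblast sums differed between the libraries. Of 9 immune markers 7 were measured, all with a ratio above 1, and their summed level in dividing cells was 568 CPM in beta-elemene and 411 CPM in vehicle, with Ptprc at 0 by the limits. Called higher were Cd74, the class II chaperone, with 307 CPM in beta-elemene and 204 CPM in vehicle, and S100a9, a neutrophil protein, with 48.5 CPM and 29.1 CPM, and Cd3e had 14 and 23 UMIs. The 6 fibroblast markers summed to 81.9 CPM in beta-elemene and 94.5 CPM in vehicle, and the 4 endothelial and 4 red cell markers each to under 3 CPM in both libraries. Cd74 was the largest part of the immune sum. In the highest of the barcode groups with Ptprc, Pecam1 or fibroblast UMIs it had 3863 CPM in beta-elemene and 2957 CPM in vehicle. Lyz2 had 90.6 CPM and 72.4 CPM in dividing cells, against 4436 CPM and 4111 CPM in those groups. Whether the Cd74 RNA came from other cells or from the malignant cells was not tested. The part of RNA from other cells in the gene differences above was not tested either.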

How the data were processed

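The deposited values are counts, as UMI counts per gene and barcode for 32285 genes, written by Cell Ranger 7.1.0 per the file headers. Cell Ranger and STAR with the mm10 build are named in the submitters' processing notes. The annotation release, the treatment of intron reads and the cell calling rule are not given in the sources used here. Tumours had been dissociated with enzymes and loaded on 3' chemistry, per the labels' protocols. Members were found by the limits given in the report, and called doublets (315 barcodes in beta-elemene, 2.90%, and 338 in vehicle, 3.13%, by Scrublet) were kept. The limit on Col3a1 and Dcn was read as UMIs.

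UMIs were summed over cells of a group and library and scaled to 1000000 (CPM) in Python 3.11.15 with scanpy 1.11.5 and scipy 1.17.1. Ratios have exact Poisson intervals, shares exact binomial (Clopper-Pearson) intervals and differences of shares Newcombe intervals, all at 95%. Cells of 1 library are not replicates, so no p-value was made. The ratio intervals were checked on simulated Poisson counts only. That simulation held no clumping of UMIs in single cells and no differences between mice, so it does not bear on either. Named genes needed at least 100 UMIs, an interval excluding 1 and, in the library where higher, at least 10 CPM, a UMI in 5% or more of dividing cells and no less than 20% of the level in barcodes with Ptprc, with Pecam1 or with at least 5 Col3a1 and Dcn UMIs. The 12 genes with the highest and the 12 with the lowest ratio were then named. For dividing over other malignant cells, with at least 200 UMIs in dividing cells of each library, the 20 highest and 12 lowest were taken, of which 1 is not reported here. Gene models without a name and genes of mitochondria, ribosomal proteins, haemoglobin, antibodies and T cell receptors were left out. From the 28 gene lists the members with the highest levels, the most extreme members and all called members of short counts were cited, some chosen after their values were seen. The members and lists were chosen with earlier results of these data known. Coordinates come from the GENCODE vM21 annotation of mm10.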

Additional observations from a re-analysis of the deposited data

Results flagged for a closer look

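For 5 genes the ratio of beta-elemene over vehicle was called lower in dividing cells while it stood above 1 in the other malignant cells, and the difference between the cell groups was not tested across replicates. Ifit1 had a ratio of 0.321 in dividing cells and 1.26 in the others. Ifit3 had 0.223 and 1.97, Ifit3b 0.155 and 1.79, and Rsad2 0.296 and 1.46. Ccl5, a chemokine for T cells, had 0.473 and 1.24. The first 4 are antiviral genes induced by interferon, and in dividing cells of vehicle most of their UMIs lay in the 17 cells given in the report. In the other malignant cells 22 of 2283 cells of beta-elemene held 52.5% of the UMIs of Ifit1, Ifit3, Ifit3b, Rsad2 and Oasl1 together, and 15 of 2497 cells of vehicle held 47.2%. Over the alternative settings the ratio in dividing cells ranged from 0.148 to 0.679 for Ifit1, from 0.114 to 0.767 for Ifit3, from 0 to 0.844 for Ifit3b, from 0.239 to 0.828 for Rsad2 and from 0.328 to 0.686 for Ccl5.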

How the results depend on the processing

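With a minimum of 200 UMIs the calls in dividing cells were 78 higher and 214 lower, and with 10 CPM added 7 and 54, against 205 and 550. The first setting tests fewer genes and the second shrinks ratios at low levels. Other scalings, a minimum of 20 UMIs, the mean over cells, doublets or the top cell left out, stricter cell limits and at least 10 Top2a and Mki67 UMIs gave counts within 1.5 times. Genes lower in dividing than in other malignant cells were 103 with the other malignant cells limited to those at or above the lower quartile of dividing depth and 103 with a minimum of 200 UMIs, against 174, and the cause of the first was not tested. Over these settings 145 list medians stayed near the reported value and 11 moved further. Gene ratios were recomputed for 47 genes, the named genes and a hand-picked set of others, and not for every cited gene. Of these ratios over the settings, 285 stayed within the main interval, 89 moved out of it and 2 changed direction. With 10 CPM added, 31 moved out and 16 stayed. The immune marker median, reported as 0.32, was 0.04 as a mean over cells, 0.13 in cells leaning to S, 0.69 in cells leaning to G2 and mitosis and 0.22 without doublets. The interferon median was -0.15 in S-leaning and 0.12 in G2- and mitosis-leaning cells. The fibroblast marker median was -0.26 both as a mean over cells and in S-leaning cells, against -0.02. As a mean over cells mitotic exit had 0.27, against 0.15, and glycolysis 0.23, against 0.34, and cholesterol synthesis had 0.12 in G2- and mitosis-leaning cells, against 0.23. Trp53inp1 turned to 1.01 without its top cell and to 1.18 without its top 5 cells, an alternative added after seeing the data. Wnt6 ranged from 1.58 to 8.84 and Cxcl10 from 0.463 to 0.966. The share difference was negative under all 9 alternatives, from -2.88 to -0.969 points, but 4 intervals included 0. Limits outside those 9 gave -2.52 points at 1 UMI, -2.51 at 2 and -0.541 at 20, and at 1 and 20 the interval included 0. The difference in S-leaning cells ranged from -2.80 to -1.33 points. No paired analysis was possible because each group is 1 library, and no replicate could be left out. UMI counts limit low genes, and their intervals do not cover UMIs held by single cells or differences between mice.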
